A study of Mus musculus with 24 samples.

Results

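The genes described here are the members of the 4 mouse Hox clusters, taken as every gene whose array symbol reads Hoxa, Hoxb, Hoxc or Hoxd followed by a number, with opposite-strand transcripts included. This gave 36 of the 18193 genes measured: 10 in the A cluster on chromosome 6, 10 in the B cluster on chromosome 11, 7 in the C cluster on chromosome 15 and 9 in the D cluster on chromosome 2. Of them 33 code for protein, and Hoxa11os, Hoxb5os and Hoxd3os1 do not. Where a gene had several probe sets (13 of the 36), the one with the highest mean stood for it, and 3 further probe sets annotated to more than 1 Hox gene were read apart.

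RNA was measured on 24 arrays, 3 in each of 8 groups of retinal endothelial cell lines whose donor mice were adult, of mixed gender and of a C57Bl6/129 mixed strain. The lines lacked frizzled-4 (Fz4-/-), the receptor through which the secreted ligand Norrin drives retinal vessel growth, or were wild type, and all of them carried a temperature-sensitive SV40 large T antigen under the gamma interferon responsive H2Kb promoter. Cells were passaged at 33 °C and collected for RNA at 37 °C. Each genotype was grown on Matrigel (extracted from basement membrane) for 6 hours once starved in 1% serum for 24 hours, on 1% gelatin, with human HEK293 embryonic kidney cells that make Norrin, or with control HEK293 cells. The labels do not say how many lines or animals stand behind a genotype, nor whether replicates are separate cultures, so a difference between genotypes may be a difference between lines, and every p-value covers array-to-array spread alone.

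All values are deposited log2 intensities, on which a difference of 1 is a factor of 2. The median over single-gene probe sets was 5.60 to 5.73 on the 12 arrays of cells grown alone. It was 3.56 to 3.67 on the 6 Fz4-/- co-culture arrays and 3.79 to 3.84 on the 6 wild type co-culture arrays. In the co-cultures, genotype and this array set cannot be told apart, and mouse and human signal cannot be told apart either, since their RNA was a mixture of mouse and human in about equal parts. Fzd4 itself was lower in Fz4-/- by 3.42 to 3.74 log2 in the 4 conditions. Of 12 endothelial markers, all lay above the array median in every group except 1 of them in wild type cells with control HEK293 cells. Of 8 fibroblast and 8 pericyte markers, at most 1 of each did so on all 3 arrays of a group of cells grown alone. Some fibroblast markers lay above it on part of the arrays, as Dcn did in wild type on gelatin (4.39 to 6.90). Of 6 leukocyte markers, 1 lay above it in wild type on gelatin and 2 in the other groups grown alone. Cd68 was among them in each group, with means of 8.83 to 9.56. The glial, neuronal and pigment epithelium lists had at most 1 each.

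Hox genes encode homeodomain transcription factors that give cells their position along the body axis. Within a cluster, the genes lie in the order of the body regions in which they act, from paralogue 1 at the anterior side to paralogue 13 at the posterior side, and Polycomb and trithorax complexes hold neighbouring genes off or on together through cell division. Adult endothelial cells keep Hox expression that differs between vessels, and in human endothelial cells several members promote (HOXD3, HOXA3, HOXD1) or restrain (HOXD10, HOXA5) migration and vessel growth.

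The promoters of the 4 members with the largest genotype difference on gelatin are shown first, because 3 of them are neighbours that went down together and the fourth lies on another chromosome. Sequences are from RefSeq on GRCm38.p6, on the strand of the gene, from 250 bases before to 50 bases after the annotated start, so that they hold promoter and the first transcribed bases. Hoxd9 is at chr2:74697513-74697812 on the plus strand, Hoxd8 at chr2:74704365-74704664 on the plus strand, the antisense transcript Hoxd3os1 at chr2:74716081-74716380 on the minus strand and Hoxb4 at chr11:96318017-96318316 on the plus strand.
Hoxd9: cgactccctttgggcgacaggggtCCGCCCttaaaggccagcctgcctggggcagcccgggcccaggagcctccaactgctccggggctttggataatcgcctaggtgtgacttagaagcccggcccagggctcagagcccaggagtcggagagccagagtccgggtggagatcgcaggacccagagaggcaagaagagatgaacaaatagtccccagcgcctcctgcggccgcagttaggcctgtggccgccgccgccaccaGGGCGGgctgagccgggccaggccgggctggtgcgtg
Hoxd8: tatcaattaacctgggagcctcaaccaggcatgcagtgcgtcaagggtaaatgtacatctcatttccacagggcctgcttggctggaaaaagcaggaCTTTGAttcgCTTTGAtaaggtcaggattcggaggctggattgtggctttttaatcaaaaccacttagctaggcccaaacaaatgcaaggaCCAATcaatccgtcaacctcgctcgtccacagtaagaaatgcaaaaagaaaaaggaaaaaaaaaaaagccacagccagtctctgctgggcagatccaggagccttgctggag
Hoxd3os1: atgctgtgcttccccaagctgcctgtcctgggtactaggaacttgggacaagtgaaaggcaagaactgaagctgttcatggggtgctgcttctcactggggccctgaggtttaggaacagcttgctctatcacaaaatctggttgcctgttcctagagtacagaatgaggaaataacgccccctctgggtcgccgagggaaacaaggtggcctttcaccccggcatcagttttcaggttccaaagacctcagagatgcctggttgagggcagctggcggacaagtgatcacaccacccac
Hoxb4: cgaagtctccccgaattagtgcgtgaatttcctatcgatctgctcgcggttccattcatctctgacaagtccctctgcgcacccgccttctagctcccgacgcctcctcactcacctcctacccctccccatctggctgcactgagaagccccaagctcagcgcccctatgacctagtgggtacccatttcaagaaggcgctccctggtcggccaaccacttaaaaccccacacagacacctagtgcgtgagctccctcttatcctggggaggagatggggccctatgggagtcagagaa
Capitals mark matches to 5 motifs sought on both strands: the TATA box (TATAAA), the GC box (GGGCGG), the CCAAT box (CCAAT), a Hox-Pbx site (TGATNNAT) and the core bound by TCF and LEF, the nuclear partners of beta-catenin (CTTTGA). No matches overlapped. Hoxd9 held 2 GC boxes, at -226 on the opposite strand (CCGCCC as printed) and at 14. Hoxd8 held the TCF/LEF core at -153 and -143 and a CCAAT box at -62, and the Hoxd3os1 and Hoxb4 windows held none of the 5. Of 32841 mouse promoters of this length, 35.7% held a GC box, 37.4% a CCAAT box and 16.0% the TCF/LEF core, with 1.73% holding that core 2 or more times. TATAAA occurred in 13.6% and the Hox-Pbx site in 8.8%. The Hoxd9 window had 20 CpG dinucleotides, Hoxd8 6, Hoxd3os1 5 and Hoxb4 14, against a median of 7. Sequences were found for 21 of the 36 members, and a match to these letters says nothing of binding.

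In cells grown alone, most Hox members were near background, meaning below the array's own median on all 3 arrays of a group. On gelatin this was so of 32 members in Fz4-/- and 29 in wild type, and on Matrigel of 33 in Fz4-/- and 30 in wild type, against 43.6% to 44.1% of all genes. All 9 HoxD members were near background in Fz4-/- cells on both surfaces, while in wild type Hoxd8, Hoxd9 and Hoxd3os1 stood above it. Hoxa7, a thoracic patterning gene, and the noncoding Hoxb5os were the members that left this range in all 8 groups. Hoxa7 lay between 5.71 and 6.35 over all arrays and Hoxb5os between 4.69 and 6.41.

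The members past the threshold for genotype on gelatin were all lower in Fz4-/- and lay almost wholly in 1 cluster. Of 36 members, 7 fell in Fz4-/-, 0 rose and 29 did not pass (limma, threshold of 0.05 on the p-value after Benjamini-Hochberg adjustment over every gene, where 14.9% of all genes passed and 7.73% fell). HoxD held 6 of the 7, from 9 measured, with a median difference of -0.80 over its members. HoxB held 1 of 10, HoxA 0 of 10 and HoxC 0 of 7, and the medians were -0.12, -0.05 and 0.06. The median over all genes was -0.004. At an unadjusted p under 0.05 the HoxA and HoxC counts on gelatin were also 0.

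Markers of cell types moved with genotype in cells grown alone as well. Of all 18193 genes, 1312 were higher and 1407 lower in Fz4-/- on gelatin, and 1258 higher and 1596 lower on Matrigel. Of 12 endothelial markers, 4 were higher in Fz4-/- on each surface (limma), Emcn, Robo4 and Tek on both, Erg on gelatin and Kdr on Matrigel. Their summed levels were 126.5 to 129.4 in Fz4-/- and 124.6 to 126.8 in wild type on gelatin, and 129.7 to 134.5 in Fz4-/- and 127.2 to 129.4 in wild type on Matrigel. Of the other lists, 1 of 8 fibroblast markers was lower on gelatin and 2 on Matrigel, led by Pdgfra (-1.31 and -1.79), and 1 of 8 pericyte markers, Acta2, was higher on gelatin (1.28). Of 6 neuronal markers Thy1, which other cell types also make, was higher by 4.32 on gelatin and 3.91 on Matrigel, and Tubb3 was lower (-1.07 and -1.40). Of 4 pigment epithelium markers, Best1 was higher (0.91 and 0.90). The part of these shifts in the Hox differences was not tested.

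Hoxd8 showed the largest difference of the 36. This gene patterns the trunk and is also known as a regulator of lymphatic endothelial genes. On gelatin it read 4.52, 4.34 and 4.22 in Fz4-/- cells, against 10.68, 10.96 and 10.44 in wild type cells. The means were 4.36 ± 0.15 in Fz4-/- and 10.69 ± 0.26 in wild type (SD, n = 3 each), a difference of -6.33 ± 0.17 (SE, limma adjusted p = 8.72e-10). Every Fz4-/- array lay below its own median, and every wild type array lay far above it. The other Hoxd8 probe set averaged 4.43 in Fz4-/- and 10.58 in wild type on gelatin.

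Hoxd3os1, transcribed from the strand opposite Hoxd3, read 3.36, 3.22 and 3.48 in Fz4-/- and 8.59, 8.69 and 8.75 in wild type on gelatin. Its difference was -5.33 ± 0.21 (SE, limma adjusted p = 3.10e-08), although a second probe set of the gene differed by less, at 4.21 in Fz4-/- and 4.99 in wild type, and the mean of both differed by -3.06. Hoxd9, which patterns the lower trunk and the limb, gave 5.02, 5.19 and 5.10 in Fz4-/- cells against 8.86, 8.37 and 8.38 in wild type cells. That is a difference of -3.43 ± 0.19 (SE, limma adjusted p = 3.35e-07). For these 3 genes, no Fz4-/- array came within 3 log2 units of any wild type array.

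**Figure D1:**
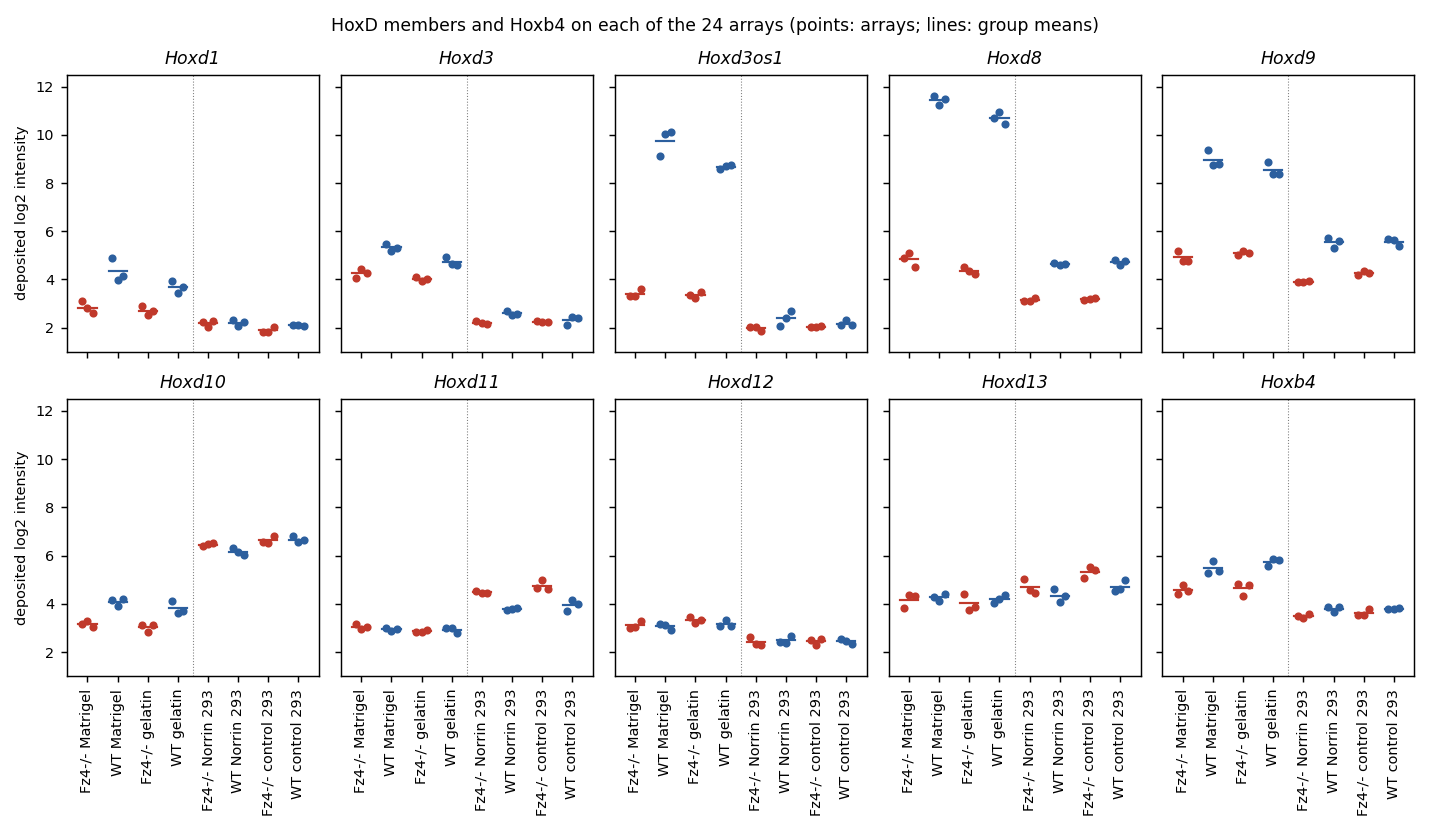
Deposited log2 intensity (vertical axis) of the 9 HoxD members and Hoxb4 on all 24 arrays, 1 point per array and a line at each group mean, with Fz4-/- in red and wild type in blue, cells grown alone left of the dotted line and co-cultures right of it. Hoxd8, Hoxd9 and Hoxd3os1 lie at 8.37 to 11.61 in wild type cells grown alone, and Hoxd10 lies higher in all 4 co-culture groups than in cells grown alone.

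The other HoxD members with a genotype difference lay below the array median in both genotypes, so their sizes rest on dim signals. Hoxd1, the most anterior HoxD gene, read 2.90, 2.52 and 2.71 in Fz4-/- and 3.94, 3.42 and 3.69 in wild type on gelatin (-0.98 ± 0.22, limma adjusted p = 0.0122). Hoxd3 read 4.11, 3.93 and 4.02 in Fz4-/- and 4.92, 4.63 and 4.61 in wild type (-0.70 ± 0.12, limma adjusted p = 0.00263). Hoxd10 read 3.11, 2.85 and 3.12 in Fz4-/- and 4.13, 3.63 and 3.71 in wild type (-0.80 ± 0.14, limma adjusted p = 0.0025). The groups did not overlap for any of the 3 genes. In RefSeq, Hoxd3 spans Hoxd4 and lies across from Hoxd3os1, and probe positions were not used here, so signal of these overlapping genes cannot be told apart. The 2 probe sets shared by Hoxd3 and Hoxd4 averaged 4.48 and 4.13 in Fz4-/- and 5.42 and 5.24 in wild type on gelatin.

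The posterior end of the cluster showed no such difference. Hoxd11, Hoxd12 and Hoxd13, which pattern the distal limb and the urogenital tract, differed by at most 0.19 in either direction on gelatin and 0.10 on Matrigel, and none of them passed the test. The members that fell therefore ran without a gap from Hoxd1 to Hoxd10 among those measured. Outside HoxD, the member past the threshold was Hoxb4, known for expanding blood stem cells when overexpressed. It read 4.84, 4.32 and 4.77 in Fz4-/- and 5.57, 5.84 and 5.83 in wild type on gelatin (-1.11 ± 0.16, limma adjusted p = 8.74e-04), and its other probe set averaged 3.74 in Fz4-/- and 4.49 in wild type.

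**Figure D2:**
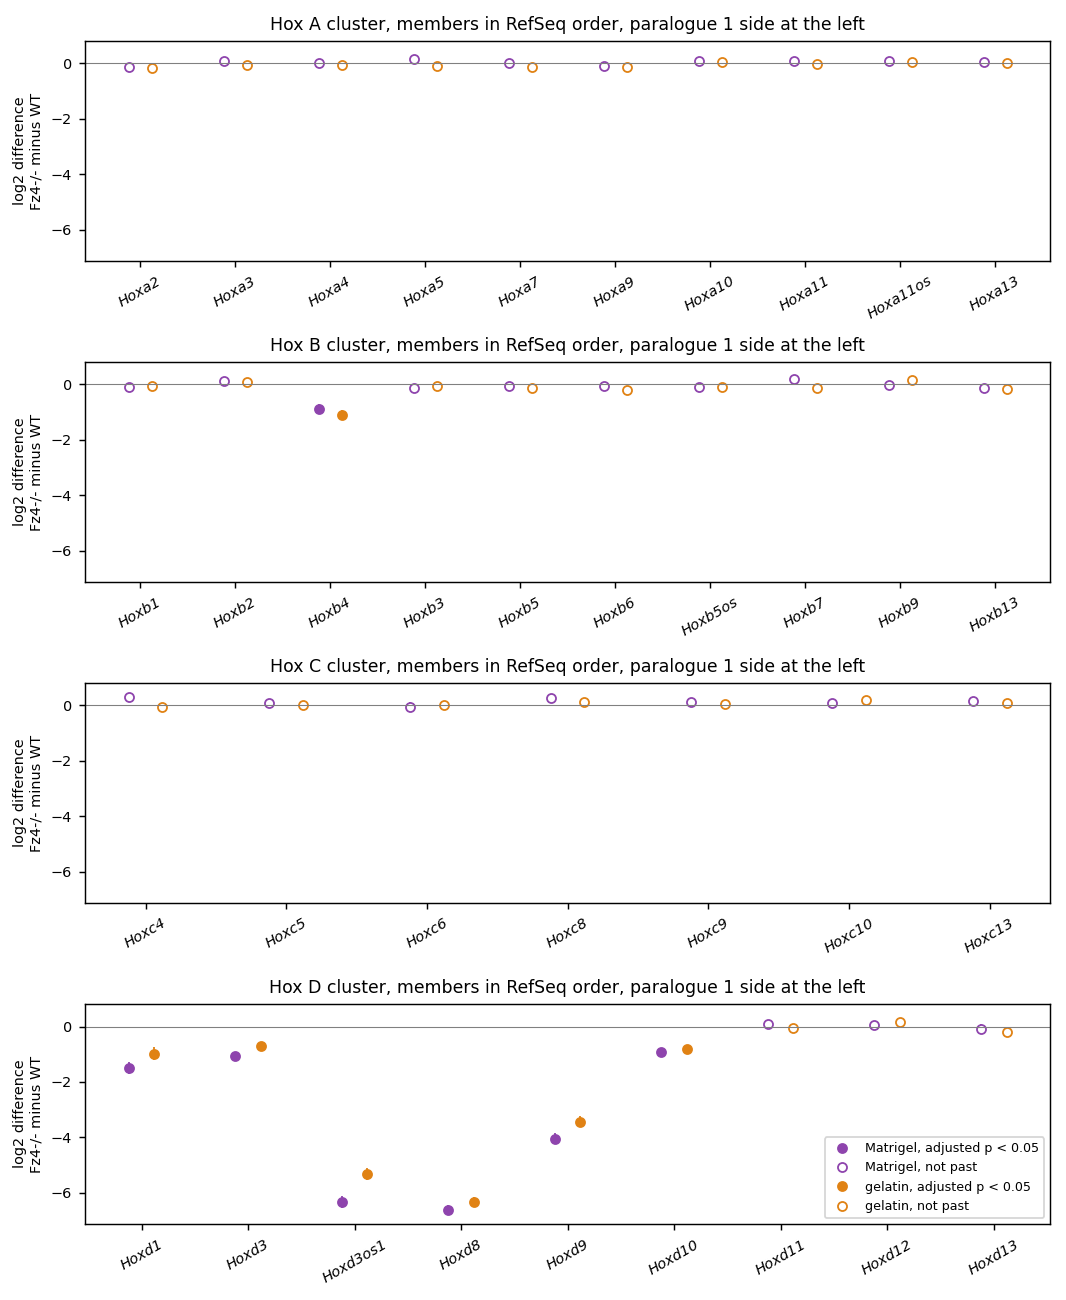
Log2 difference of Fz4-/- minus wild type (vertical axis, the same scale in every panel) for each Hox member in chromosomal order, 1 panel per cluster, on Matrigel in purple and gelatin in orange. Bars are SEs of limma, most of them smaller than the points, and filled points passed the threshold. The filled points are Hoxb4 and the HoxD members from Hoxd1 to Hoxd10.

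On Matrigel, measured on separate arrays, the same 7 members were lower in Fz4-/-, 0 were higher and 29 did not pass (limma, where 15.7% of all genes passed and 8.77% fell). Hoxd8 read 4.89, 5.08 and 4.52 in Fz4-/- and 11.61, 11.24 and 11.48 in wild type, a difference of -6.62 ± 0.17 (SE, adjusted p = 1.45e-09). Hoxd3os1 read 3.31, 3.31 and 3.61 in Fz4-/- and 9.12, 10.03 and 10.13 in wild type (-6.35 ± 0.21, and -3.86 with its probe sets averaged). Hoxd9 read 5.20, 4.77 and 4.78 in Fz4-/- and 9.38, 8.74 and 8.78 in wild type (-4.05 ± 0.19). The dimmer members again separated without overlap, with differences of -1.50 for Hoxd1, -1.08 for Hoxd3, -0.92 for Hoxd10 and -0.89 for Hoxb4. The HoxD median was -1.08, against 0.02 over all genes.

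The 2 genotype comparisons on cells grown alone kept these 7 members when any array was left out. With replicates 2 and 3 of each group averaged, Hoxd1 (limma adjusted p = 0.129, alternatives from 0.000263 to 0.129) and Hoxd3 (0.0637, alternatives from 8.8e-05 to 0.0637) no longer passed on gelatin.

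The genes that flank HoxD were read next. Lnpk, an endoplasmic reticulum protein gene beyond Evx2, averaged 7.07 in Fz4-/- and 7.68 in wild type on gelatin (-0.62 ± 0.12, limma adjusted p = 0.00573), and Mtx2, a mitochondrial import gene on the Hoxd1 side, averaged 9.49 in Fz4-/- and 9.89 in wild type (-0.40 ± 0.09, limma adjusted p = 0.0114). Both were also lower in Fz4-/- on Matrigel, by -0.57 and -0.34. Evx2, the homeobox gene next to Hoxd13, did not pass on gelatin (-0.05 ± 0.09) or Matrigel (0.16 ± 0.09). Of 14 measured genes beside the 4 clusters, 2 rose on gelatin, Calcoco1 beside HoxC (0.50) and Hibadh beside HoxA (0.28), and 2 fell, Lnpk and Mtx2, where 14.9% of all genes passed and 7.73% fell.

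Hox proteins bind DNA with TALE homeodomain partners, and 2 of 8 measured rose in Fz4-/- on gelatin with 0 falling, Meis2 (1.01 ± 0.18) and Pbx2 (0.28 ± 0.08). The shares of all genes past the threshold, for this and the lists below, were 14.9% on gelatin and 15.7% on Matrigel. On Matrigel the same pair was higher, by 1.09 and 0.29. Of 23 Polycomb genes, 4 rose on gelatin, led by the methyltransferase Ezh1 (0.90 ± 0.13) and Phc3 (0.57 ± 0.11), and 2 fell, the methyltransferase Ezh2 (-0.86 ± 0.24) and Cbx7 (-0.28 ± 0.07). Of 12 trithorax and related chromatin genes, 0 rose and 1 fell, Ash2l (-0.40 ± 0.08). Among 10 caudal and retinoic acid regulators, which act upstream of Hox genes in the embryo, 2 rose, the receptors Rarb (1.55 ± 0.47) and Rxra (0.99 ± 0.14), and 0 fell. On Matrigel, 3 Polycomb genes rose and 2 fell, 1 trithorax gene rose (Kmt2a, 0.54 ± 0.15) and 1 fell (Ash2l, -0.48 ± 0.08), and of the caudal and retinoic acid list 1 rose (Rxra, 0.88 ± 0.14). The list medians in the order given were, on gelatin, 0.07, -0.04, -0.13 and 0.17, beside -0.004 over all genes. In co-culture, where 38.8% (control) and 38.4% (Norrin) of all genes were lower, some of these genes turned. With control cells Rarb (-1.23), Phc3 (-1.09), Ezh1 (-0.50) and Pbx2 (-0.50) were lower in Fz4-/-. With Norrin-expressing cells Rarb (-1.22), Phc3 (-0.69), Rxra (-0.40) and Pbx2 (-0.33) were lower. Cbx7 (-0.71 and -0.63) and Ash2l (-0.42 in each) stayed lower.

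Between cells on Matrigel, on which endothelial cells form cords, and cells on gelatin, Hox members differed in both directions, by at most 1.31 log2 in size. The labels give serum starvation for the Matrigel cultures alone, so surface and starvation cannot be told apart in any Matrigel value here. In Fz4-/- cells 2 members rose and 2 fell on Matrigel against gelatin (limma, where 19.7% of all genes passed, 7.91% higher and 11.8% lower). In wild type 5 rose and 6 fell (18.4% of all genes passed, 6.71% higher and 11.7% lower). Hoxa3, Hoxb1 and Hoxb13 passed in both genotypes, each in the same direction. Equal replicate numbers deviated together here, and with the replicate number as a block 6 members passed in Fz4-/- and 14 in wild type, all of the above included. Those gained were Hoxb9 (0.32 ± 0.10) and Hoxd8 (0.47 ± 0.14) in Fz4-/-, and Hoxd1 (0.65 ± 0.12), Hoxd9 (0.43 ± 0.14) and Hoxb5 (-0.37 ± 0.12) in wild type. The shares of all genes above are from the fit without the block, so this gain is not set beside all genes. These comparisons share arrays with the genotype comparisons, so the values below do not stand apart from those above. The medians over the 36 members were -0.02 in Fz4-/- and -0.04 in wild type, and those over all genes -0.05 in each.

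Hoxa3, a gene of the pharyngeal region, had the largest fall. It read 3.34, 3.84 and 3.37 on Matrigel and 4.68, 4.77 and 4.63 on gelatin in Fz4-/- cells (-1.17 ± 0.15, limma adjusted p = 4.14e-04). In wild type it read 3.68, 3.23 and 3.43 on Matrigel and 4.88, 4.77 and 4.61 on gelatin (-1.31 ± 0.15, limma adjusted p = 2.94e-04). No Matrigel array reached any gelatin array in either genotype. All these values were below the array medians, and the 3 other Hoxa3 probe sets, dimmer still, differed by -0.18 to 0.14 in Fz4-/- and -0.29 to 0.23 in wild type. The mean of all 4 probe sets differed by -0.28 in Fz4-/- and -0.40 in wild type.

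In HoxD, 3 of 9 members were higher on Matrigel in wild type and 0 in Fz4-/-. Hoxd3os1 read 9.12, 10.03 and 10.13 on Matrigel and 8.59, 8.69 and 8.75 on gelatin in wild type (1.08 ± 0.21, limma adjusted p = 0.00584, and 0.46 with its probe sets averaged), while in Fz4-/- it stayed near background at a difference of 0.06 ± 0.21. Its second probe set did not rise in either genotype. That one averaged 3.47 on Matrigel and 4.21 on gelatin in Fz4-/- (-0.74, without overlap of the arrays), and 4.84 on Matrigel and 4.99 on gelatin in wild type (-0.15, with overlap). Hoxd3 differed by 0.23 ± 0.12 in Fz4-/- and 0.61 ± 0.12 in wild type. Hoxd8 differed by 0.47 ± 0.17 in Fz4-/- and 0.76 ± 0.17 in wild type, where its other probe set went the opposite way (-0.22), so no direction holds for that gene. The mean of the Hoxd8 probe sets in wild type was 0.27 higher on Matrigel (limma adjusted p = 0.0884, alternatives from 0.000396 to 0.0884). Whether the Matrigel response differed between genotypes was tested directly, and 0 of 36 members passed (4 at unadjusted p under 0.05, 0.0165% of all genes passed), Hoxd3os1 included (-1.02 ± 0.30, limma adjusted p = 0.852).

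Smaller differences between Matrigel and gelatin made up the rest. Hoxb13, a posterior gene, was higher in Fz4-/- (0.43 ± 0.12) and in wild type (0.41 ± 0.12), and Hoxb1, a hindbrain gene, was lower by -0.43 ± 0.12 in Fz4-/- and -0.39 ± 0.12 in wild type. Hoxc4 rose in Fz4-/- (0.66 ± 0.14, limma adjusted p = 0.00724), with 4.26, 4.11 and 4.32 on Matrigel and 3.62, 3.72 and 3.39 on gelatin, and in wild type the difference was 0.27 ± 0.14. In wild type Hoxb9 rose by 0.51 ± 0.11, and Hoxb7 (-0.48 ± 0.10), Hoxa5 (-0.46 ± 0.10), Hoxc9 (-0.37 ± 0.11) and Hoxa7 (-0.30 ± 0.08) fell. The second Hoxa5 probe set, without a cross-hybridization suffix, did not follow (-0.0006). In wild type the count went down to 7 without Matrigel replicate 3, gelatin replicate 1 or gelatin replicate 2, and in Fz4-/- to 2 without Matrigel replicate 2, gelatin replicate 1 or gelatin replicate 3. Of 23 Polycomb genes, 1 rose and 1 fell on Matrigel in each genotype, and of 12 trithorax and related genes likewise 1 and 1. Of all genes, 19.7% passed in Fz4-/- and 18.4% in wild type. The chromatin genes that passed were the same in both genotypes. They were Phf19 (-0.35 in Fz4-/-, -0.51 in wild type), Cbx7 (0.31 and 0.37), Kdm6a (0.48 and 0.47) and Wdr5 (-0.26 and -0.29).

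**Figure D3:**
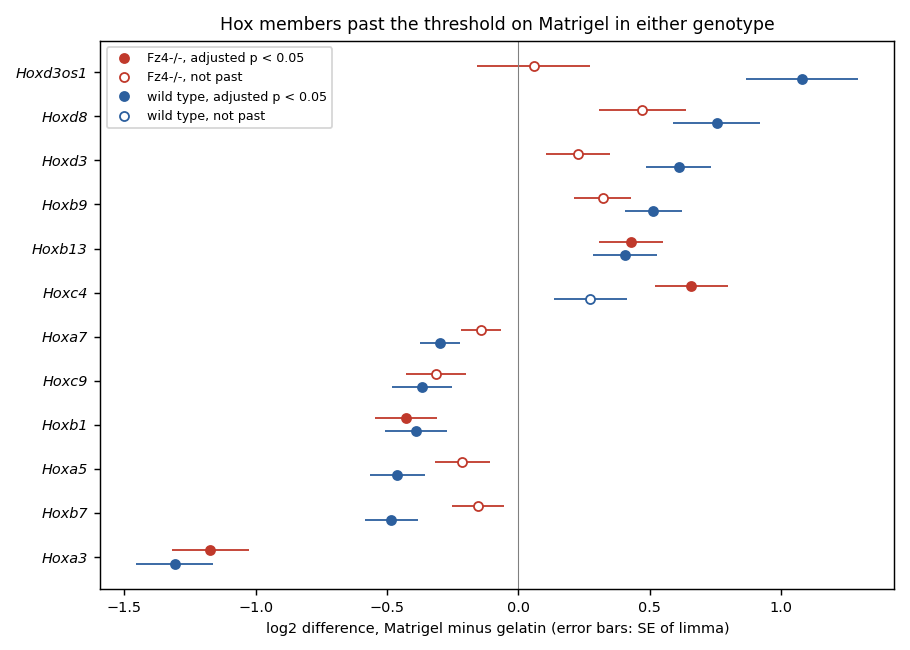
Log2 difference of Matrigel minus gelatin (horizontal axis, bars are SEs of limma) for the 12 Hox members past the threshold in either genotype, Fz4-/- in red above wild type in blue, filled where the threshold was passed. Hoxa3 lies lowest in both genotypes, and Hoxd3os1 is at 0.06 in Fz4-/- and 1.08 in wild type.

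Fewer Hox members were near background in co-culture than in cells grown alone, but this cutoff moves with the array median. That median was 3.56 to 3.84 in co-culture and 5.60 to 5.73 in cells grown alone. The mean over the 36 members differed less, at 3.65 to 4.03 per array in co-culture and 3.77 to 4.38 alone. With HEK293 cells 15 to 18 of the 36 members were near background in a group, and 37.3% to 39.3% of all genes. On 7 members every co-culture array lay above every array of cells grown alone, against 0.846% of all genes: Hoxa9, Hoxa11, Hoxb6, Hoxc8, Hoxc9, Hoxd10 and Hoxd11. Hoxc8, a thoracic gene, had a median of 5.62 in co-cultures (5.45 to 5.94) and 2.50 in cells grown alone (2.28 to 3.09). Hoxd10 had 6.52 (6.01 to 6.82) in co-cultures and 3.45 (2.85 to 4.19) alone, and Hoxa9, a posterior gene active in blood and endothelium, 6.98 in co-cultures and 5.14 alone. On 9 members every co-culture array lay below every array of cells grown alone, against 72.5% of all genes. The array sets differ in scale, so these levels are not on a proven common scale. After quantile normalization over all 24 arrays, 22 of 36 members were higher in every co-culture array, against 21% of all genes, and 1 was lower, Hoxd3, against 13.1%. No array held HEK293 RNA alone among those used here, and the share of human transcripts in these signals was not tested.

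**Figure D4:**
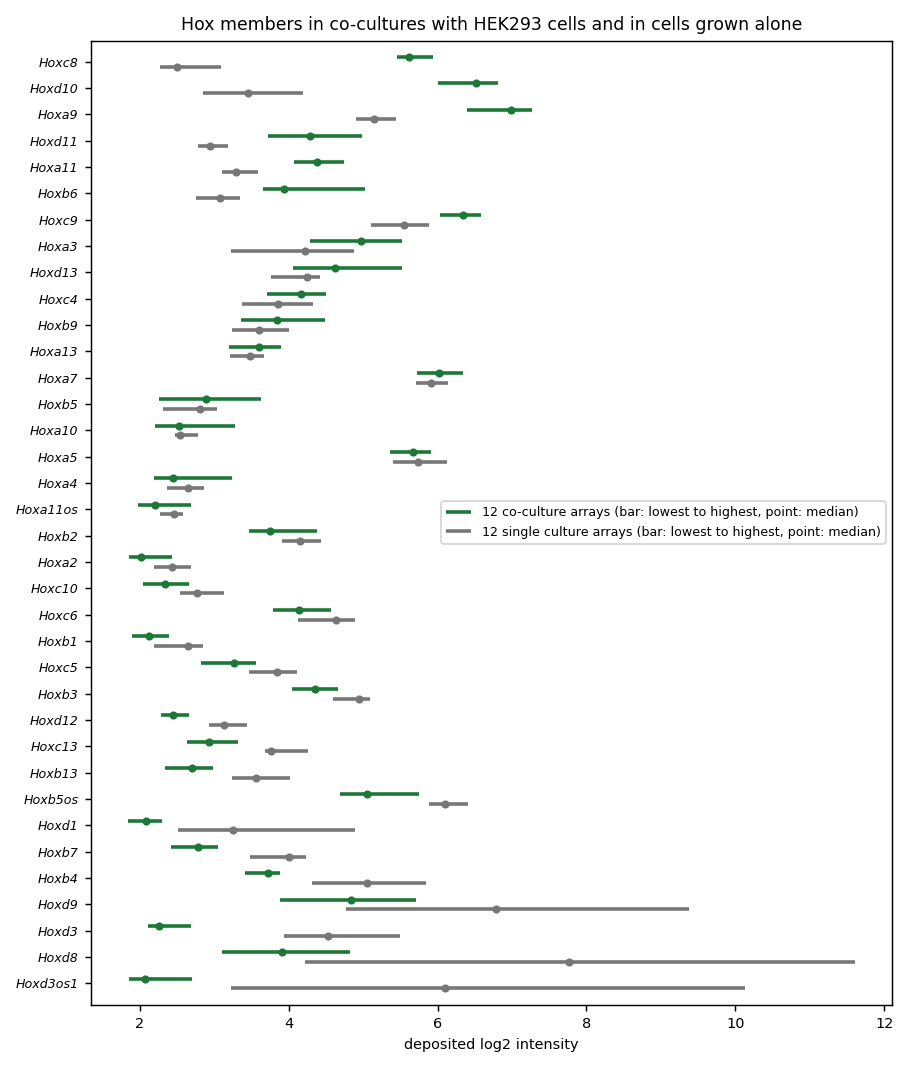
Deposited log2 intensity (horizontal axis) of the 36 Hox members, each with the lowest to highest value as a bar and the median as a point, for the 12 co-culture arrays in green above the 12 arrays of cells grown alone in grey, ordered by the difference of medians. Hoxc8, Hoxd10 and Hoxa9 stand highest in co-culture relative to cells alone, and Hoxd3os1, Hoxd8 and Hoxd3 lowest.

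The HoxD genes that marked wild type cells grown alone read lower in wild type co-cultures, where Hoxd3os1 was near background and Hoxd8 and Hoxd9 were not. Hoxd8 read 4.83, 4.60 and 4.78 in wild type cells with control HEK293 cells, against 10.68, 10.96 and 10.44 on gelatin, a shift of -5.96. Hoxd3os1 shifted by -6.51 and Hoxd9 by -2.99. The 12 endothelial markers shifted by a median of -3.83 in the same wild type groups (range -5.62 to -2.67) and all genes by -1.55. Hoxd8 and Hoxd3os1 thus lay beyond the whole range of the endothelial markers, and Hoxd9 within it. After quantile normalization over 24 arrays the shifts were -3.50 for Hoxd8, -5.03 for Hoxd3os1 and -0.51 for Hoxd9, against -1.43 for the markers (range -3.29 to -0.18). Of 4766 genes at least as bright as Hoxd9 in wild type on gelatin, 29 shifted by as much as Hoxd8 or more and 1976 by as much as Hoxd9 or more. Fewer mouse cells, less RNA per mouse cell and the unlike scales of the array sets cannot be told apart here.

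Norrin, the ligand of frizzled-4, was compared within the co-cultures of each genotype. In Fz4-/- cells 0 of 36 members passed (limma, 9 at unadjusted p under 0.05, and 0.456% of all genes passed). In wild type cells 1 member rose and 1 fell (9.57% of all genes passed, 5.39% higher and 4.18% lower). The medians over the 36 members were -0.07 in Fz4-/- and -0.004 in wild type, and over all genes -0.02 in each. With Norrin, endothelial markers also read higher in wild type, 10 of 12 past the threshold with a median of 0.80 and summed levels of 82.6 to 87.0 with Norrin against 74.4 to 77.5 without. In Fz4-/- 0 of 12 passed, with a median of 0.24. In the other lists, Col3a1 (0.95), Acta2 (0.905) and Col1a2 (0.80) were higher with Norrin in wild type. Dcn (-2.91) and Cd68 (-2.29) were lower there, and Thy1 (-0.71) was lower in Fz4-/-. The part of these shifts in the Hox values was not tested.

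The member that rose was Hoxb6, a thoracic and limb gene. It read 4.46, 5.03 and 4.63 with Norrin and 3.88, 4.39 and 4.33 without in wild type (0.51 ± 0.15, limma adjusted p = 0.0356). In Fz4-/- it read 3.76, 3.82 and 3.66 with Norrin and 3.86 or more without (-0.17 ± 0.15). The difference of the 2 responses did not pass (-0.68 ± 0.21, limma adjusted p = 0.123), nor did it for any of the 36 members (3 at unadjusted p under 0.05, 2.12% of all genes passed). Hoxd10 fell in wild type, with 6.32, 6.16 and 6.01 with Norrin and 6.82, 6.55 and 6.63 without (-0.50 ± 0.12, limma adjusted p = 0.00997). Hoxb6 did not pass without wild type Norrin replicate 2 (0.34), Norrin replicate 3 (0.55) or control replicate 1 (0.35), and Hoxd10 did not without Norrin replicate 3 (-0.42). The HoxD genes that were bright in wild type cells grown alone read lower in co-culture and showed no Norrin response past the threshold there. Hoxd3os1 was near background in these co-cultures. Hoxd8 read 4.70, 4.61 and 4.66 with Norrin and 4.83, 4.60 and 4.78 without.

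Between genotypes in co-culture, the share of Hox members past the threshold was near or below the share of all genes. With Norrin-expressing cells 3 members were higher and 15 lower in Fz4-/- (limma, 49.9% of all genes passed, 11.5% higher and 38.4% lower). With control HEK293 cells 4 were higher and 10 lower (50.9%, with 12.1% higher and 38.8% lower). This balance rests on the deposited scale, on which the array sets differ in level. After quantile normalization 5 were higher and 6 lower with Norrin-expressing cells, and 6 higher and 4 lower with control cells. With each array centred on its median, 6 were higher and 6 lower with Norrin-expressing cells, and 6 higher and 4 lower with control cells. The shares of all genes above are those of the deposited scale, so counts under these 2 scalings are not set beside all genes. Without wild type Norrin replicate 3, 12 members passed with Norrin-expressing cells. The median over all genes was -0.20 in both comparisons, beside -0.26 with Norrin and -0.19 with control cells over the 36 members. With control cells, 10 of 12 endothelial markers were higher in Fz4-/- (median 1.01). Of 8 fibroblast markers, 6 were lower and 1 higher (median -0.84). With Norrin-expressing cells, 8 endothelial markers were higher and 2 lower (median 0.49), and 6 fibroblast markers were lower (median -1.37). The part of both marker lists in these differences was not tested.

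Hoxd8 and Hoxd9 remained lower in Fz4-/- here. With Norrin-expressing cells Hoxd8 read 3.11, 3.10 and 3.23 in Fz4-/- and 4.70, 4.61 and 4.66 in wild type (-1.51 ± 0.10, limma adjusted p = 1.31e-09). With control cells it read 3.14, 3.20 and 3.22 in Fz4-/- and 4.83, 4.60 and 4.78 in wild type (-1.55 ± 0.10). Hoxd9 differed by -1.63 ± 0.12 with Norrin-expressing and -1.29 ± 0.12 with control cells, and no Fz4-/- array reached a wild type array for either gene. Both stayed lower in Fz4-/- under every alternative in which they were tested, with -1.62 to -1.04 for Hoxd8.

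Other members that held their call in both co-culture comparisons, under every alternative in which they were tested, were Hoxb9, a thoracic gene, and Hoxd11. Hoxb9 read 3.36, 3.41 and 3.47 in Fz4-/- and 4.30, 4.05 and 4.38 in wild type with Norrin (-0.83 ± 0.12). Hoxd11 went the other way, at 4.52, 4.45 and 4.45 in Fz4-/- and 3.76, 3.80 and 3.82 in wild type with Norrin (0.68 ± 0.12), and 0.81 ± 0.12 with control cells. In cells grown alone Hoxd11 did not pass. Hoxa3 was higher in Fz4-/- by 0.87 with Norrin and 1.05 with control cells, but the mean of its 4 probe sets turned the sign (-0.13 and -0.09). Hoxb5 and Hoxb6 were lower in Fz4-/- with Norrin by -0.92 and -0.96. Hoxb5os was lower with Norrin too (-0.64), and Hoxd10 was higher (0.29). With Norrin-expressing cells, the calls named so far held after quantile normalization and median centring too. Hoxc4, Hoxb2, Hoxd3os1, Hoxc13, Hoxd3, Hoxa11os, Hoxc9, Hoxa5 and Hoxb4 read lower with Norrin on the deposited scale (-0.44 to -0.31) but passed under neither of these scalings. Hoxc10 (0.47 and 0.46) and Hoxd13 (0.51 and 0.57) passed with Norrin under both of them, though not on the deposited scale. Hoxa9 (0.42) did so under median centring alone. With control cells Hoxb9 (-0.80), Hoxb5 (-0.57), Hoxa11os, Hoxa10, Hoxa4, Hoxb7, Hoxb5os and Hoxc9 (-0.55 to -0.27) were lower in Fz4-/-, and Hoxd13 (0.62) and Hoxa9 (0.64) higher. The Hoxa9 sign turned with its probe sets averaged (-0.11). Of these, Hoxb5, Hoxa10, Hoxa4, Hoxb7, Hoxb5os and Hoxc9 passed with control cells under neither of the other scalings.

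Members past the threshold in none of the 10 comparisons on the deposited scale numbered 9: Hoxa2, Hoxa11, Hoxa13, Hoxb3, Hoxc5, Hoxc6, Hoxc8, Hoxc10 and Hoxd12. Their values over the 24 arrays ran from 1.85 to 2.69 for Hoxa2 at the low end to 2.28 to 5.94 for Hoxc8, whose range comes from its higher level in co-culture. Under quantile normalization and under median centring, Hoxc10 was past the threshold and higher in Fz4-/- in both co-culture comparisons (0.30 to 0.47). Hoxa13 was so with control cells (0.38 and 0.39).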

How the data were processed

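Affymetrix mouse arrays with biotin-labelled RNA were read, 24 in all. The submitters deposited log2 intensities per probe set after RMA, per the submitters' processing notes. These name no version and leave unstated which arrays went through it jointly. After 64 control probe sets of the 45101 were removed, the 34945 that the platform annotates to 1 gene symbol were kept, which gave 18193 genes by the highest-mean probe set. RefSeq (GRCm38.p6) held 34741 of these probe sets by gene ID and gave gene order, names and promoters.

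A mean for each group was fitted with limma 3.58.1 in R 4.3.3 (package data.table, version 1.17.8), with Benjamini-Hochberg adjustment over all genes. The 12 arrays of cells grown alone and the 12 co-culture arrays were fitted apart (8 residual degrees of freedom each). Errors are SEs of limma unless named SD, with n = 3 per group. With 3 arrays against 3 the smallest exact permutation p is 0.1, so no such test is given. The number of arrays limits the precision. On simulated data of the gelatin comparison, with 18193 genes, 90% of 50 genes changed by 1 log2 and 36% of those changed by 0.5 were recovered. The simulation changed 200 genes and drew noise independently for each array. In the data 2719 genes passed for genotype on gelatin and replicate numbers deviated together, so these rates need not hold there. Equal replicate numbers deviated together (correlations of 0.1 to 0.718) in 6 of 8 comparisons, which pairs them by the rule used (every pair over 0.1 before rounding), and not in Norrin in Fz4-/- (-0.186 to 0.00603) or genotype with control cells (-0.0482 to 0.0656). Alternatives were other normalizations, other probe set choices (1 added after seeing the data), a level filter, all arrays in 1 fit, another variance model, the replicate block and left-out arrays. All members past the threshold are named, with up to 4 genes per context list. The members, lists and alternatives were chosen with earlier results of these data known. Of a list of 12 noncoding genes of the clusters, 0 were measured. Figures used Python 3.11.15 with pandas 2.3.3, numpy 2.4.6 and matplotlib 3.10.9.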

Additional observations from a re-analysis of the deposited data

Results flagged for a closer look

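Hoxb6 stood out in the comparison of Norrin-expressing with control HEK293 cells, because all arrays of the genotypes moved in opposite ways. It was lower with Norrin in Fz4-/- (-0.1708 log2) and higher with Norrin in wild type (0.5063 log2). The difference between these responses was tested with limma and did not pass (-0.68 ± 0.21, adjusted p = 0.123).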

How the results depend on the processing

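Genotype counts in cells grown alone were 7 on both surfaces in every alternative except the level filter, replicates 2 and 3 averaged (5 on gelatin) and replicate 1 of every group left out (8 on Matrigel and 9 on gelatin). With only genes above the median level, 2 members were left in cells grown alone and 11 in co-culture. The 2, Hoxd8 and Hoxd9, passed this filter through their wild type levels, so their genotype calls are no support. The counts were 2 for genotype on Matrigel, 2 on gelatin, 0 for Matrigel in Fz4-/-, 1 for Matrigel in wild type, 6 for genotype beside Norrin-expressing cells, 6 beside control cells, and 1 for Norrin in wild type. Quantile normalization gave 11 for genotype with Norrin-expressing cells, 9 of them shared with the 18 of the deposited scale (5 higher and 6 lower, against 3 and 15). Replicates 2 and 3 were the closest pair in every group except Fz4-/- with control HEK293 cells. With replicates 2 and 3 averaged, Matrigel gave 1 in Fz4-/- and 2 in wild type, and Norrin 0 in wild type. Without replicate 1 of every group, Matrigel gave 8 in Fz4-/-, Norrin 1 in Fz4-/- and 4 in wild type, the Matrigel difference 2 and the Norrin difference 1. Probe sets with no suffix (_a, _s or _x) in their name gave 1 for Norrin in wild type, since Hoxb6 had none. With the _s and _x sets left out alone, an alternative chosen after seeing the data, it gave 2, and 1 named call was lost, Hoxa5 on Matrigel in wild type. Leaving out each array in turn gave 2 to 3 for Matrigel in Fz4-/-, 7 to 11 for Matrigel in wild type, 0 to 1 for the Matrigel and the Norrin difference, 0 to 3 for wild type with Norrin, 12 to 18 for genotype with Norrin-expressing and 11 to 13 with control cells. With all probe sets of a gene averaged, the genotype difference turned negative for Hoxa3 with Norrin-expressing (-0.1274) and control cells (-0.0911) and for Hoxa9 with control cells (-0.1126). The cause of these changes was not tested, beyond fewer genes or samples in some settings. In the paired fit with the replicate number as a block, the counts were 14 for Matrigel in wild type (11 shared), 6 in Fz4-/- (4 shared), and 7 for genotype on each surface, and no call was lost. Shares of all genes are not given for these settings, so no count here is set beside them. Of the values of single members, 877 kept direction and side of the threshold, 144 no longer passed and 3 turned. Near background signal limits the size of most Hox differences.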
